A study of Oryza sativa with 12 samples.

Results

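The genes described here lie on rice chromosome 3 within 5 Mb of TT2 (Os03g0407400), the locus that distinguishes the lines of the study. They are all rows of the deposited table on that chromosome whose midpoint falls within 5 Mb of the midpoint of TT2, at 16732305. This rule used position only, and it took 903 of the 40674 genes listed. Of these, 802 are protein coding, 49 are nontranslating coding sequences, 14 are small RNAs and 38 are unannotated transcripts that the submitters added. The porin gene Os03g0323800 (-4.99 Mb) lies just inside the upstream edge and Os03g0588100 just inside the downstream edge. Os03g0323600 and the Frigida-like gene Os03g0588200 lie just outside them.

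TT2 carries a GGL domain, the domain of heterotrimeric G protein gamma subunits. Such a subunit works in a pair with a beta subunit, and the pair passes signals from the plasma membrane inside the cell. Near-isogenic lines are made by repeated crossing to one parent, so that they share most of the genome and differ in a donor segment around the selected locus. Genes that flank the locus can therefore differ in sequence between such lines, whatever the selected gene itself does.

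RNA was sequenced from the aerial organs of rice seedlings 12 days old. NIL-TT2HJX, labelled wild type, and NIL-TT2HPS32, labelled loss of function for TT2, are called HJX and HPS32 here. Seedlings of each line grew at 28 °C and were then kept for 20 h at 28 °C or at 42.5 °C (heat), with 3 libraries in each of the 4 groups. Neither the parents of the lines nor the ends of the donor segment are given in the labels, so how much of the 5 Mb differs between the lines is unknown here. Whether the libraries come from separate plants is not stated either, and p-values measure the spread between libraries, which may be technical.

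Each library held between 14785975 and 17871972 reads assigned to genes. Levels are CPM (counts scaled to library depth, with TMM scaling), and a gene is called where edgeR's quasi-likelihood test gave a Benjamini-Hochberg adjusted p under 0.05 over all 25473 genes tested. Of the 903 genes around TT2, 592 (65.6%) passed the filter on low counts and were tested, against 62.6% of all genes listed, and 134 had no read in any library. Summed levels of 28 green tissue markers (chlorophyll a/b binding proteins and the small subunit of Rubisco) ranged from 78000 to 98300 CPM at 28 °C, from 2380 to 3660 CPM in heated HJX and from 5540 to 6960 CPM in heated HPS32. All 28 were read in both heated groups. Summed root markers (3 genes) stayed at or below 13.8 CPM and summed seed reserve genes (2 genes) at or below 5.21 CPM in every library. In such bulk tissue fewer cells of a type and less RNA per cell cannot be told apart, and the part of the green tissue markers in the results below was not tested.

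The genes around TT2 took between 2.25% and 2.44% of the reads in every library. At 28 °C the share was 2.39% ± 0.0166 (SD, n = 3) in HJX and 2.40% ± 0.0427 in HPS32. After heat it was 2.27% ± 0.0171 in HJX and 2.41% ± 0.0117 in HPS32. With TMM scaling their summed level fell from 27700 ± 754 to 21400 ± 135 CPM in HJX and from 27900 ± 590 to 19000 ± 47.1 CPM in HPS32, so the share and the scaled sum differ in what they show of heat. Per kb of gene length, the tested genes had a median level of 10.6 CPM per kb in HJX and 10.7 in HPS32 at 28 °C, against 8.11 and 8.13 over all tested genes.

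The highest level per length at 28 °C was that of a photosynthesis gene. Os03g0343900 (12812218 to 12812882, -3.92 Mb) encodes PsbX, a small subunit of photosystem II, and reached 1720 ± 197 CPM per kb (SD, n = 3) in HJX and 1770 ± 84.4 in HPS32. After heat it stood at 75.0 ± 14.7 CPM per kb in HJX and 162 ± 16.4 in HPS32. In single libraries it read 1300, 1090 and 1050 CPM in HJX and 1230, 1120 and 1180 CPM in HPS32 at 28 °C. Heated HJX gave 46.9, 60.8 and 41.9 CPM, and heated HPS32 gave 120, 102 and 101 CPM, so the heated lines did not overlap. The log2 change with heat was -4.52 ± 0.14 (SE) in HJX and -3.45 ± 0.13 in HPS32, and the responses differed (interaction 1.07 ± 0.17, edgeR adjusted p = 0.00015). The next highest at 28 °C was Os03g0342900, of the dormancy and auxin associated protein family, at 850 ± 41.4 CPM per kb in HJX and 751 ± 56.4 in HPS32. With heat it fell by 1.74 on the log2 scale in HJX and by 2.18 in HPS32. It was followed by Os03g0333400 (579 ± 52.4 and 586 ± 49.8 CPM per kb), a Psb27 protein that takes part in photosystem II assembly and repair. This gene fell by 3.62 ± 0.10 on the log2 scale in HJX and by 2.80 ± 0.10 in HPS32. Both photosystem genes fell together with the green tissue markers, and whether they share a cause with them was not tested. Under heat the leading gene per length in HJX was Os03g0351300, of glycosyl hydrolase family 14 (the beta-amylase family, which cleaves starch), at 297 ± 22.7 CPM per kb. In heated HPS32 it was the ribosomal protein S21e gene Os03g0345200, at 254 ± 23.3 CPM per kb.

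At 28 °C the comparison of the lines asks whether the different genotype shows in the genes that flank it. Of the 592 tested genes, 1 was called, and it was lower in HPS32 by more than 2-fold. Over all tested genes 0.0864% were called (22 genes), 0.0432% in each direction and 0.0471% at 2-fold or more. Over the rest of chromosome 3, 6 of 2752 were called. At an unadjusted p under 0.05 the count was 46 (7.77%) around TT2 and 1665 (6.54%) over all tested genes. DESeq2 also called 1. The authors' deposited table has 40 genes in all at an adjusted p under 0.05 in this comparison. Of these, 2 lie around TT2, both lower in HPS32: the transcript described next and Os03g0355200. The latter, with WD repeats and a splicing factor PRP4 domain, read 4.51, 3.59 and 0.361 CPM in HJX and 0.293, 0.427 and 0.423 CPM in HPS32, so 1 HJX library lies among those of HPS32 (edgeR adjusted p = 0.715). Most genes had narrow estimates: the median SE was 0.135 on the log2 scale, and for 489 genes (82.6%) the 95% interval of the difference lay within 2-fold.

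The called gene was an unannotated transcript on the plus strand (chromosome 3, 14019375 to 14021287), 2.71 Mb before TT2. Its deposited description is a retrovirus-related Pol polyprotein of the TNT 1-94 type with a GAG-pre-integrase domain. Such proteins are encoded by copia-type retrotransposons, mobile elements that copy themselves through RNA. Its level at 28 °C was 35.2, 40.0 and 61.6 CPM in HJX and 15.9, 22.3 and 18.2 CPM in HPS32. After heat it was 13.9, 18.9 and 15.8 CPM in HJX and 5.08, 4.90 and 5.31 CPM in HPS32. The lines did not overlap at either temperature. HPS32 was lower by a log2 difference of -1.28 ± 0.19 at 28 °C (edgeR adjusted p = 0.0329) and of -1.67 ± 0.22 under heat (adjusted p = 4.16e-05). It was the only gene around TT2 called the same way at both temperatures, against 0.0510% of all tested genes (13 genes). The 28 °C call was lost without any of 4 of the 28 °C libraries (HJX replicate 2, adjusted p = 0.051, and HPS32 replicates 1, 2 and 3, adjusted p = 0.114, 0.068 and 0.203). It was also lost without heated HJX library 3 or any heated HPS32 library (adjusted p from 0.0813 to 0.0974), and in a fit of the compared groups alone (adjusted p = 0.659). The log2 change of the transcript with heat was -1.49 ± 0.19 in HJX and -1.88 ± 0.22 in HPS32. Reads of near copies of such an element could be split between loci by the authors' counting.

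Libraries with the same replicate number at 28 °C deviated together from their group means, with r of at least 0.113 in each of the 3 pairs over genes above a low-level limit and of at least 0.0756 over all tested genes. With that number as a block, the fit called 5 of the 592 genes, against 0.259% of all tested genes (66 genes), and 3 the same way at both temperatures, against 0.141% (36 genes). The block term applied to the 28 °C libraries alone, since heated libraries cannot be tied to numbers. It left the heated differences of the 5 genes as they were, and calls there changed through the spread estimate shared by all libraries. Beside the retrotransposon-like transcript, the genes called at 28 °C with the block were Os03g0407050, Os03g0431600, Os03g0431800 and Os03g0439700. Os03g0431800 (1.40 Mb after TT2) read 131, 99.2 and 80.6 CPM in HJX and 266, 169 and 111 CPM in HPS32. It was higher in HPS32 in each of the 3 numbered pairs, although the groups overlap, with a blocked difference of 0.76 ± 0.08 (adjusted p = 2.38e-05) and one of 0.81 ± 0.29 without the block (adjusted p = 0.686). Under heat it differed by -0.17 (adjusted p = 0.694). Its neighbour Os03g0431600 (1.39 Mb) read 12.4, 9.79 and 5.28 CPM in HJX and 34.6, 20.6 and 5.63 CPM in HPS32, a blocked difference of 0.98 ± 0.20 (adjusted p = 0.0325, and 0.807 without the block). Under heat it differed by 1.19, called in the blocked fit (adjusted p = 0.0125) and not without it (adjusted p = 0.362). Os03g0439700 (1.84 Mb), of the DUF1230 family of unknown function, differed by 0.32 ± 0.07 in the blocked fit (adjusted p = 0.0418, and 0.838 without the block). Under heat it differed by 0.45 (adjusted p = 9.15e-05 in the blocked fit and 0.125 without it).

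No gene around TT2 was read in one line only. By the rule of 0 reads in all 6 libraries of one line and at least 5 in each library of the other, the count was 0 of 903, and it was 0 over all genes listed.

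**Figure D1:**
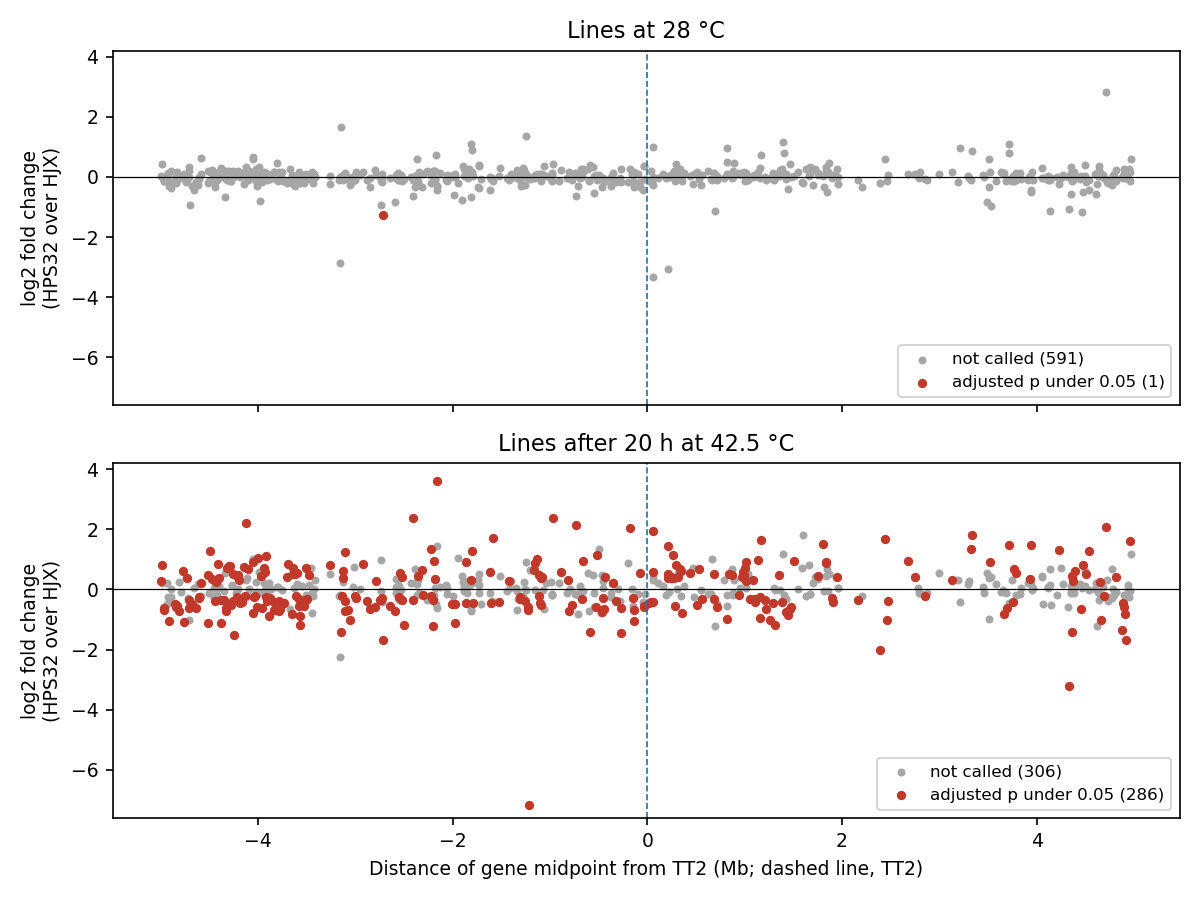
Difference between the lines for the 592 tested genes (log2 fold change, HPS32 over HJX, y axis) against distance from TT2 in Mb (x axis), at 28 °C above and after heat below. Red points have an adjusted p under 0.05: 1 gene at 28 °C and 286 after heat, spread over the whole 10 Mb.

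TT2 itself was hardly read. Its reads per library were 0, 6 and 3 in HJX and 5, 1 and 1 in HPS32 at 28 °C, then 2, 2 and 4 in heated HJX and 7, 6 and 3 in heated HPS32. The lines overlap at 28 °C, and the 40 reads in all left TT2 below the filter, so that it was not tested. A difference between the lines in TT2 RNA was not detectable at this depth. Within 100 kb of TT2, 18 genes are listed, of which 1 had no read and 13 were tested.

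At 28 °C none of the 5 tested genes nearest to TT2 on either side was called without the replicate block. Those with few reads were estimated loosely, with 95% intervals of -1.66 to 0.77 for Os03g0406900, of -1.74 to 1.17 for Os03g0408401 and of -0.76 to 2.72 for a small RNA gene. Next on the upstream side is Os03g0407100 (16715256 to 16715939, DUF1677, unknown function), 16.7 kb away. It read 48.0, 36.2 and 41.7 CPM in HJX and 45.2, 34.3 and 39.9 CPM in HPS32 at 28 °C, which overlap almost completely. Its difference was -0.07 ± 0.13 with a 95% interval of -0.36 to 0.21.

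Os03g0407050 (16696508 to 16704564, plus strand) carries a von Willebrand factor type A domain, a fold found in many proteins that bind other proteins. It was higher in HPS32 at 28 °C, with 160, 188 and 184 CPM against 111, 155 and 141 CPM, where every HPS32 library lies above every HJX library. The difference was 0.38 ± 0.10 without the block (adjusted p = 0.321) and 0.39 ± 0.07 with it (adjusted p = 0.00808). Under heat the order turned: HJX read 95.8, 96.6 and 92.7 CPM and HPS32 69.2, 61.8 and 60.7 CPM, a called difference of -0.57 ± 0.10 (adjusted p = 0.000143). The interaction was -0.96 ± 0.14 (adjusted p = 6.57e-05). Its opposite-strand neighbour Os03g0407000, with the same kind of domain, overlaps it by 4489 bases and was also lower in heated HPS32. That call was lost under RLE scaling (adjusted p = 0.052), total counts (adjusted p = 0.257) and DESeq2 (adjusted p = 0.0503), and with the compared groups alone (adjusted p = 0.0554). It was also lost without heated HJX library 1 or 3, or heated HPS32 library 2 or 3 (adjusted p from 0.0722 to 0.147). Whether reads were counted by strand is not stated, so the reads of this pair cannot be told apart.

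On the downstream side the first tested gene is Os03g0407900 (16749318 to 16754223), a tyrosine kinase type protein kinase 19.5 kb from TT2. It rose with heat in both lines, by 1.04 ± 0.17 in HJX and 0.72 ± 0.18 in HPS32, from 5.46, 6.07 and 6.58 CPM to 11.9, 12.9 and 12.5 CPM in HJX. HPS32 moved from 6.15, 5.98 and 4.58 CPM to 11.6, 7.09 and 8.92 CPM. Its lower level in heated HPS32 (-0.44 ± 0.17, adjusted p = 0.0385) lost its call under total-count scaling (adjusted p = 0.401), RLE scaling (adjusted p = 0.0628) and DESeq2 (adjusted p = 0.0706), and without any of 5 heated libraries (adjusted p up to 0.204). The unannotated transcript 39.9 kb after TT2 was also lower in heated HPS32, at -0.41 ± 0.11 (adjusted p = 0.0054), and not under total counts (adjusted p = 0.300).

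Os03g0408300 (16787183 to 16787911), 55.2 kb after TT2, encodes a ribosomal protein of the L15, L18e and L27A family, part of the large ribosomal subunit. At 28 °C it read 177, 158 and 150 CPM in HJX and 160, 150 and 171 CPM in HPS32, a difference of -0.01 ± 0.08 with an interval of -0.17 to 0.15. Heated HJX read 91.4, 102 and 98.8 CPM and heated HPS32 141, 153 and 145 CPM. It fell in HJX by 0.73 ± 0.08, while the change in HPS32 was -0.14 ± 0.08 (adjusted p = 0.12) and turned to a called rise of 0.43 under total counts, and the responses differed by 0.60 ± 0.11 (adjusted p = 0.000394). Next to it, Os03g0408401 and a small RNA gene were read at 0.437 CPM or less at 28 °C and at 1.2 to 2.92 CPM in heated libraries.

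**Figure D2:**
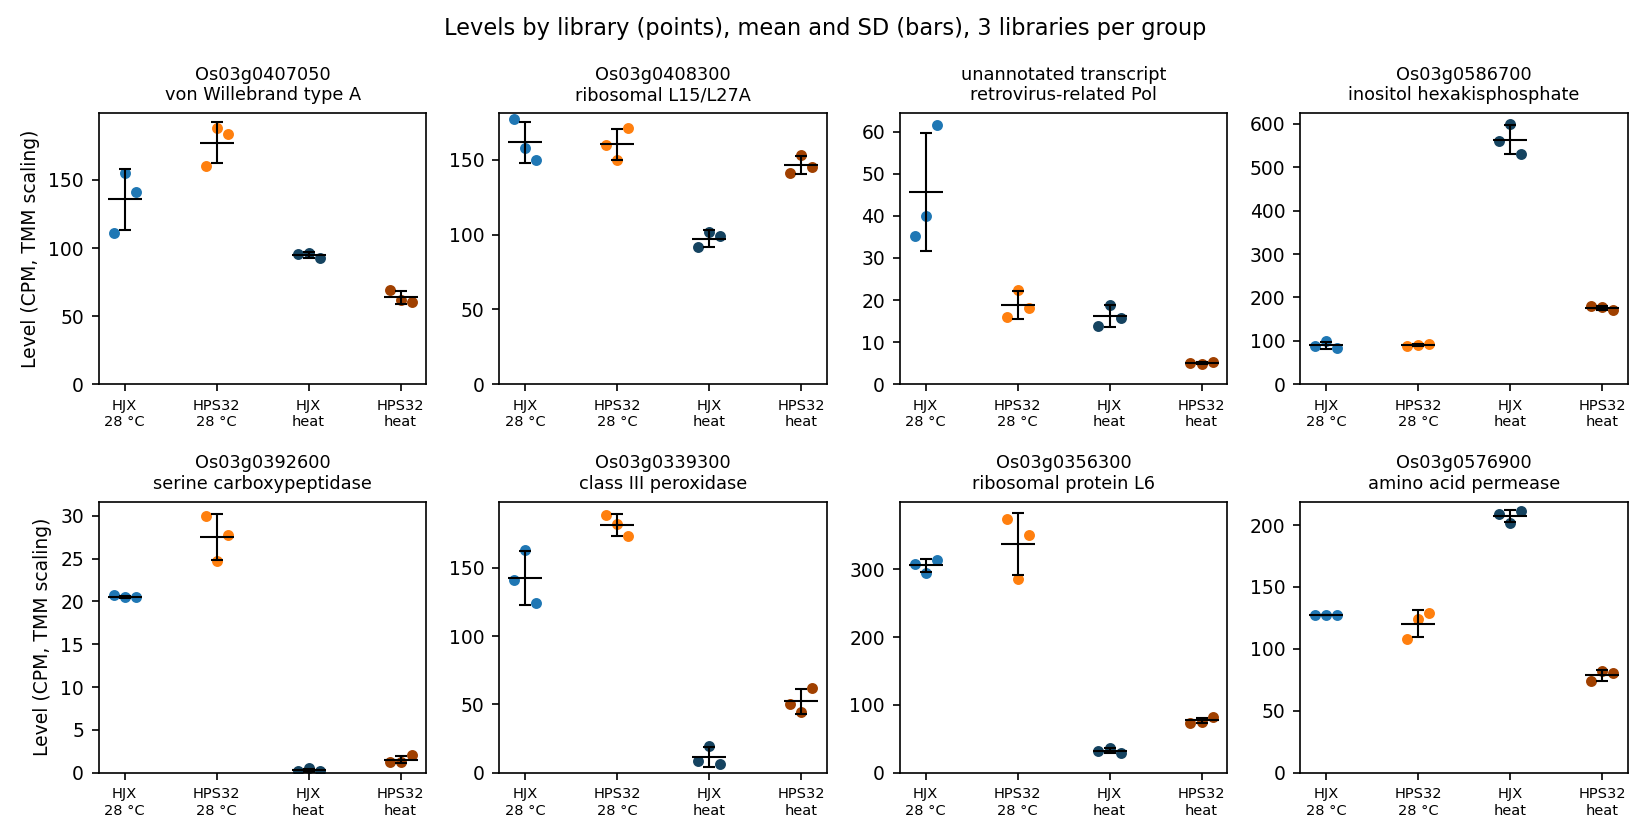
Levels in CPM with TMM scaling (y axis, from 0) in each of the 12 libraries (points) for 8 genes around TT2, with the mean and SD of 3 libraries per group (bars). In Os03g0407050 HPS32 lies above HJX at 28 °C and below it after heat, and in the retrovirus-related transcript it lies below HJX at both temperatures.

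Under heat the lines differed at many of these genes. Of 592, 286 (48.3%) were called, against 45.2% of all tested genes. In HPS32, 129 were higher (21.8%, against 21.6%) and 157 lower (26.5%, against 23.6%). With total-count scaling the split was 222 higher and 69 lower, since that scaling moves the median of all genes by 0.26 on the log2 scale. At least 2-fold differences were called for 53 genes (8.95%, against 9.99% of all tested). The comparisons that follow share these heated libraries and are given side by side.

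Os03g0586700 (21647446 to 21659950, 4.92 Mb after TT2), described by an inositol hexakisphosphate domain, had the largest gain in CPM with heat in HJX. It stood at 87.3, 98.8 and 83.9 CPM in HJX and 87.2, 91.5 and 92.0 CPM in HPS32 at 28 °C. After heat HJX read 561, 599 and 531 CPM and HPS32 180, 178 and 170 CPM, with no overlap. The difference of the heated lines was -1.68 ± 0.08 (adjusted p = 3.59e-12), and at 28 °C it was 0.00 ± 0.08. At the other end of the region Os03g0336700 (-4.24 Mb, no domain description) went from 30.9, 29.9 and 27.3 CPM to 234, 228 and 220 CPM in HJX. In HPS32 it went from 29.7, 33.9 and 33.9 CPM to 79.1, 79.0 and 79.8 CPM.

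Os03g0392600 and Os03g0404800 were higher in heated HPS32 than in heated HJX. Os03g0392600 (15763550 to 15767310) encodes a serine carboxypeptidase, a family of secreted and vacuolar hydrolases and acyltransferases. At 28 °C it read 20.7, 20.5 and 20.5 CPM in HJX and 30.0, 24.7 and 27.8 CPM in HPS32. Heat left 0.239, 0.499 and 0.157 CPM in HJX and 1.28, 1.28 and 2.06 CPM in HPS32, a line difference of 2.38 ± 0.33 (adjusted p = 8.9e-06). Os03g0404800, 0.18 Mb before TT2 and of the 3-beta hydroxysteroid dehydrogenase family, was likewise higher in heated HPS32 by 2.06 ± 0.28 (adjusted p = 1.4e-05). It read 0.837, 1.25 and 0.472 CPM there in HJX and 4.51, 3.04 and 2.94 CPM in HPS32.

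Heat against 28 °C was called for 445 genes (75.2%) in HJX, against 74.9% of all tested genes. There 199 rose (33.6%, against 38.1%) and 246 fell (41.6%, against 36.8%). In HPS32 it was called for 431 (72.8%), against 70.4%, and 178 rose (30.1%, against 34.0%) and 253 fell (42.7%, against 36.4%). Changes of at least 2-fold were called for 244 genes in HJX (41.2%, against 42.4%) and 224 in HPS32 (37.8%, against 36.3%). Under total counts the splits were 257 up and 184 down in HJX and 311 up and 143 down in HPS32, so which direction holds the majority depends on the scaling. It moves the median heat change of all tested genes by 0.30 in HJX and 0.56 in HPS32. In both lines 358 genes (60.5%) were called the same way, against 58.3% of all tested genes, with 150 up (25.3%, against 28.4%) and 208 down (35.1%, against 29.9%). A further 11 genes (1.86%, against 2.05%) were called in opposite ways. Under total counts none of these 11 was, and 11 other genes were. The test was passed in HJX alone by 76 (12.8%, against 14.6%), in HPS32 alone by 62 (10.5%, against 10%) and in neither by 85 (14.4%, against 15.1%).

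The largest rise was that of an unannotated transcript 1.31 Mb after TT2 (18046115 to 18047038). It had 1 read in each line at 28 °C and reached 21.5, 25.1 and 20.1 CPM in heated HJX and 10.4, 10.1 and 9.07 CPM in heated HPS32. Os03g0415500, of the Tim17/Tim22/Tim23 family of inner mitochondrial membrane translocases, rose by 5.16 ± 0.33 in HJX and 4.46 ± 0.33 in HPS32. Its level at 28 °C was 0.364 CPM or less in every library, and after heat 7.59 to 8.05 CPM in HJX and 4.69 to 6.29 CPM in HPS32. Os03g0370500 and Os03g0350100 also rose in both lines. Os03g0370500, a TruB-type pseudouridine synthase with the DKCLD domain of dyskerin, went from 3.04 to 4.81 CPM in HJX to 22.4 to 24.5 CPM, and in HPS32 from 3.66 to 3.85 CPM to 43.0 to 50.7 CPM. Os03g0350100, a Nop family protein that binds snoRNA, rose by 2.54 ± 0.09 in HJX and 2.71 ± 0.09 in HPS32.

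Cytochrome P450 genes, haem enzymes that oxidise hormones and secondary metabolites, mostly fell. Of 8 tested, 7 fell and 1 rose in HJX and 6 fell in HPS32. Of 193 P450 genes in the whole table, 107 fell in HJX and 93 in HPS32. The median log2 change of the 8 was -3.22 in HJX and -2.68 in HPS32. Over the 193 it was -0.88 and -0.42, and over all tested genes 0.03 and -0.03. Os03g0332100 (-4.49 Mb) read 23.3, 24.8 and 21.3 CPM in HJX at 28 °C and 0.777, 0.312 and 0.315 CPM after heat. In HPS32 it went from 24.1, 25.8 and 27.6 CPM to 1.13, 1.23 and 1.08 CPM. Os03g0371350 read 7.94, 6.33 and 5.71 CPM in HJX at 28 °C and had no read in heated HJX, at least 38.1-fold lower against a floor of 3 counts per library. Heated HPS32 held 5 reads of it. Its neighbours Os03g0371300 and Os03g0371400 fell to 3 reads each in heated HJX. These 3 gene models lie end to end within 14567492 to 14573221, and how reads were split among near copies is uncertain.

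Heated HPS32 had higher levels than heated HJX of 5 of the 8 P450 genes, and none was called lower, against 62 higher and 23 lower of 193. One of them, Os03g0371350, lost that call in DESeq2 (adjusted p = 0.0541) and without any of several heated libraries (adjusted p up to 0.0857). Os03g0570100 (3.94 Mb) went from 5.10, 4.37 and 3.90 CPM to 0.658, 1.12 and 0.682 CPM in HJX. In HPS32 it went from 3, 2.56 and 3.94 CPM to 2.15, 2.88 and 1.86 CPM, where its change was -0.47 ± 0.26 (adjusted p = 0.116), or 0.10 under total counts. The difference of the responses was 1.98 ± 0.39 (adjusted p = 0.000887).

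Ribosomal protein genes responded to heat differently in the lines. The interaction was called for 10 of 14 tested, all higher in HPS32, against 160 higher and 6 lower of 278 in the whole table. Of the 14, 11 fell in HJX and 8 in HPS32, and none rose, against 158 and 97 that fell and 68 and 104 that rose of the 278. The median change of the 14 was -0.84 in HJX and -0.30 in HPS32, against -0.4 and 0.05 over the 278. Under heat 11 of the 14 were higher in HPS32, at a median of 0.50, against 201 of 278 ribosomal protein genes over the whole table. With total counts the direction in HPS32 turned, to 7 up and 2 down, while 13 of the 14 were then higher in heated HPS32. Os03g0356300, for ribosomal protein L6, read 308, 295 and 314 CPM in HJX and 374, 286 and 350 CPM in HPS32 at 28 °C. Heat left 32.1, 37.2 and 28.9 CPM in HJX and 74.0, 75.3 and 81.9 CPM in HPS32. Os03g0452300, for ribosomal protein S5, fell by 2.95 in HJX and by 2.10 in HPS32. The S21e gene Os03g0345200 differed between the heated lines by 0.00 ± 0.08 (adjusted p = 0.973), and was called higher in HPS32 by 0.25 under total counts.

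Chaperones refold or protect damaged proteins. Of 7 genes with such wording 6 rose in HJX, and 5 rose and 1 fell in HPS32. Of 240 such genes in the whole table, 114 rose and 81 fell in HJX, and 103 rose and 83 fell in HPS32. The one that fell around TT2, Os03g0370000, is described as a mitochondrial branched-chain ketoacid dehydrogenase kinase and matched through its HSP90-like ATPase fold only. It read 39.3, 37.7 and 38.8 CPM in HJX and 34.3, 36.2 and 32.5 CPM in HPS32 at 28 °C, then 73.5, 66.4 and 65.8 CPM in heated HJX and 28.7, 31.1 and 30.0 CPM in heated HPS32. Its change in HPS32 was -0.20 (adjusted p = 0.0277). That call was lost under RLE scaling (adjusted p = 0.0692) and in DESeq2 (adjusted p = 0.101), and turned to a called rise of 0.36 under total counts (adjusted p = 0.000295). Its lower level in heated HPS32 than in heated HJX was called under TMM (-1.20), RLE (-1.15) and total counts (-0.94). Os03g0426900, a ClpB-type disaggregase, which pulls proteins out of aggregates, rose by 1.11 ± 0.07 in HJX and 0.71 ± 0.07 in HPS32 (interaction -0.40 ± 0.10, adjusted p = 0.00674, and 0.346 under total counts). A DnaJ gene, Os03g0401200, rose by 1.69 in HJX and 1.15 in HPS32. DnaJ proteins deliver clients to Hsp70. The small chaperonin Os03g0366000, the lid of the Cpn60 folding chamber, rose by 1.00 and 1.2 in HJX and HPS32.

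Pentatricopeptide repeat proteins, which bind and process organelle RNA, mostly rose. In each line 7 of 10 rose, and 2 fell in HJX and 1 in HPS32, at medians of 1.23 and 1.12. Among all 403 tested genes of this kind 296 rose in HJX and 326 in HPS32, at medians of 1.21 and 1.5, so the genes around TT2 lie near that share. Os03g0400901 rose by 1.47 in HJX and 2 in HPS32. The exception in both lines was Os03g0569800, which fell by 0.95 and by 0.62, and whose change in HPS32 was -0.05 under total counts (adjusted p = 0.732).

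Class III peroxidases, secreted haem enzymes that act on the cell wall, fell: 5 of 5 tested in HJX and 4 in HPS32, with 6 further members not tested. Among all 90 tested peroxidases 62 fell in HJX and 60 in HPS32. Os03g0339300 (-4.12 Mb) read 141, 163 and 124 CPM in HJX and 189, 182 and 173 CPM in HPS32 at 28 °C. Heated HJX read 8.79, 19.6 and 6.14 CPM and heated HPS32 50.6, 44.4 and 62.1 CPM, a line difference of 2.20 ± 0.36 (adjusted p = 0.0011). Potassium transporters of the HAK/KUP type, listed here by their domain, fell at 3 of 4 genes in each line, against 13 of 25 in HJX and 16 of 25 in HPS32 over the whole table. Os03g0575200 fell by 3.94 in HJX and by 3.82 in HPS32. Its relative Os03g0576200 rose by 3.31 ± 0.55 in HJX, from 9 reads to 111, while HPS32 went from 4 reads to 13 (1.17 ± 0.86, adjusted p = 0.231). MATE exporters, which move small molecules out of the cytosol, fell at 4 of 5 genes in each line, and at 2 in HJX and 1 in HPS32 under total counts. Among all 42 tested exporters 27 fell in HJX and 23 in HPS32. Both tested terpene synthases fell in both lines, against 12 of 21 in HJX and 13 of 21 in HPS32 over the whole table. Os03g0347900 fell by 4.08 ± 0.22 in HJX and by 3.08 ± 0.20 in HPS32. Tandem copies lie in several of these families, and reads may have been split among them.

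Regulators were mixed. Of 13 transcription factors 4 rose and 4 fell in HJX, and 3 rose and 4 fell in HPS32. All 840 tested transcription factors gave 260 up and 356 down in HJX, and 206 and 333 in HPS32. The NAC gene Os03g0327800 rose by 2.31 in HJX and 1.11 in HPS32 (interaction -1.20, adjusted p = 0.00185), and the WRKY gene Os03g0444900 by 1.54 and 1.28. WRKY factors act in defence and stress. The CBF/NF-Y type factor Os03g0413000, 0.35 Mb after TT2, fell by 2.89 and by 3.03. A Myb-like gene, Os03g0388600, had no read in 9 libraries and 57 reads in heated HJX, at 0.837, 1.75 and 0.787 CPM. It was at least 7.2-fold lower in heated HPS32, against the same floor, and that call was lost in DESeq2 (adjusted p = 0.184). Of 14 protein kinases 3 rose and 7 fell in HJX, and 6 rose and 6 fell in HPS32. All 1007 tested kinases gave 285 up and 449 down in HJX, and 268 and 428 in HPS32. Under total counts 6 of the 14 kinases rose and 5 fell in HJX, and 8 rose and 5 fell in HPS32. Of the 13 factors 6 then rose and 3 fell in HJX, and 7 rose and 3 fell in HPS32. Among 9 NB-ARC or leucine-rich repeat genes, the families of immune and surface receptors, 1 rose and 4 fell in HJX (2 and 2 under total counts), and 5 rose and 3 fell in HPS32. The whole table had 173 up and 180 down of 523 in HJX, and 215 and 141 in HPS32. The leucine-rich repeat kinase Os03g0335500 read 13.3, 15.9 and 16.4 CPM in heated HJX and 23.3, 25.4 and 27.1 CPM in heated HPS32. It fell by 0.34 ± 0.14 in HJX and rose by 0.48 ± 0.13 in HPS32. The fall in HJX lost its call under total counts (-0.04, adjusted p = 0.795). That call was also lost without HJX replicate 1 (adjusted p = 0.25) or heated HJX library 1 (adjusted p = 0.135). The rise in HPS32 was not called in the fit with the replicate block (adjusted p = 0.12). That fit sets heat against the fitted level of unheated replicate 1, so it does not test the rise from the group mean.

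Genes for transport and protein turnover made up the other larger groups. Of 23 transporters 8 rose and 13 fell in HJX, and 6 rose and 14 fell in HPS32 (8 and 8 under total counts). The whole table had 261 up and 376 down of 823 in HJX, and 211 and 380 in HPS32. Of 15 genes with peptidase wording, which includes the retrotransposon-like transcript, 4 rose and 7 fell in HJX, and 3 rose and 6 fell in HPS32, a majority that turned under total counts (7 and 4, and 8 and 4). All 442 tested genes with that wording gave 172 up and 171 down in HJX, and 157 and 185 in HPS32. Of 11 ubiquitin or proteasome genes, which tag or degrade proteins, 4 rose and 4 fell in HJX, and 3 rose and 4 fell in HPS32 (6 and 3 under total counts). The whole table had 267 up and 150 down of 567 in HJX, and 189 and 189 in HPS32. Zinc finger genes rose at 3 and fell at 7 of 13 in HJX, and rose at 2 and fell at 7 in HPS32 (4 and 3 under total counts). The balance over all 623 tested was the other way in HJX, at 279 up and 168 down, and near even in HPS32, at 205 and 202. Of 9 RNA recognition motif genes 5 rose and 2 fell in HJX (7 and 1 under total counts), and 6 rose and 3 fell in HPS32 (6 and 0 under total counts). All 200 tested genes of this kind gave 128 up and 37 down in HJX, and 107 and 53 in HPS32. Among 9 glycosyl transferases or hydrolases, enzymes that build or cleave sugar chains, 4 rose and 4 fell in HJX, and 3 rose and 5 fell in HPS32. The whole table had 152 up and 279 down of 532 in HJX, and 135 and 259 in HPS32. Of 5 F-box genes, which select proteins for ubiquitination, 1 rose and 3 fell in HJX, and 3 fell in HPS32 (2 rose and 2 fell under total counts). More rose than fell of all 143 tested, at 74 and 33 in HJX, and 64 and 34 in HPS32. Of 2 tested amino acid permeases 1 rose in HJX, and 1 rose and 1 fell in HPS32. More fell than rose of all 58 tested, at 34 and 12 in HJX, and 34 and 8 in HPS32. Of 32 unannotated transcripts 12 rose and 11 fell in HJX, and 11 rose and 12 fell in HPS32 (19 and 4 under total counts). More rose than fell of all 1281 tested, at 649 and 259 in HJX, and 666 and 221 in HPS32.

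**Figure D3:**
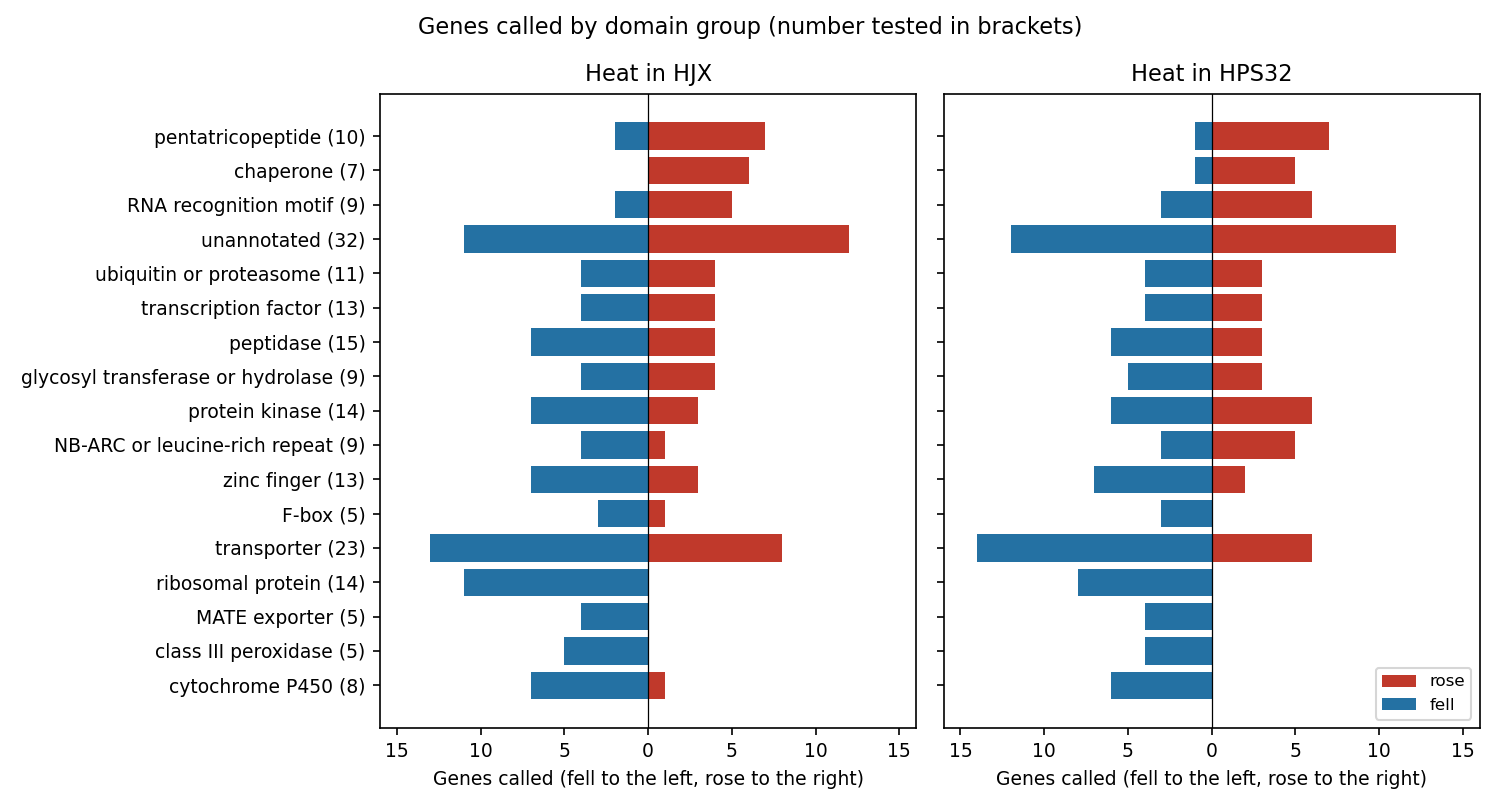
Genes called with heat in each domain group with at least 5 tested genes (number tested in brackets), for HJX on the left and HPS32 on the right; bars to the right count genes that rose and bars to the left genes that fell. Ribosomal protein, cytochrome P450, peroxidase and MATE genes lie to the left, and chaperone and pentatricopeptide genes to the right.

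The heat response differed between the lines (the interaction) for 190 genes (32.1%), against 29.3% of all tested genes. It was higher in HPS32 for 83 (14.0%, against 13.3%) and lower for 107 (18.1%, against 16%), and the counts were 159 and 36 under total counts. At least 2-fold differences were called for 39 (6.59%, against 8.28%). In 118 (19.9%, against 17.0%) heat was called the same way in both lines. For 86 of these (14.5% of the tested genes, against 13.0% of all tested) both lines changed the same way and HPS32 changed less. For 32 (5.41%, against 3.97%) both changed the same way and HPS32 changed more. All 11 genes with opposite changes had a called interaction. Another 35 (5.91%, against 6.42%) changed in HJX alone, 25 (4.22%, against 3.72%) in HPS32 alone and 1 (0.169%, against 0.161%) in neither, the DnaJ gene Os03g0560050 (-0.70 ± 0.37 in HJX and 0.73 ± 0.34 in HPS32, interaction adjusted p = 0.0402, lost without any of 7 libraries, adjusted p up to 0.101).

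The amino acid permease Os03g0576900 (4.36 Mb), a carrier of amino acids across membranes, was one of those with opposite changes. It read 127 CPM in each HJX library and 108, 124 and 129 CPM in HPS32 at 28 °C, and 209, 202 and 211 CPM in heated HJX against 73.8, 81.8 and 80.7 CPM in heated HPS32. It rose by 0.71 ± 0.07 in HJX and fell by 0.61 ± 0.07 in HPS32, where the change under total counts was -0.05 (adjusted p = 0.536). An RNA recognition motif gene, Os03g0374575, did likewise, at 0.74 ± 0.11 in HJX and -0.37 ± 0.11 in HPS32, and 0.19 in HPS32 under total counts (adjusted p = 0.143). The interactions of both genes were called under total counts too. Among genes above the level set for naming, the largest negative difference was that of Os03g0355500 (-3.15 Mb), which rose by 5.17 ± 0.40 in HJX and 2.11 ± 0.35 in HPS32. It had 6 and 19 reads at 28 °C.

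**Figure D4:**
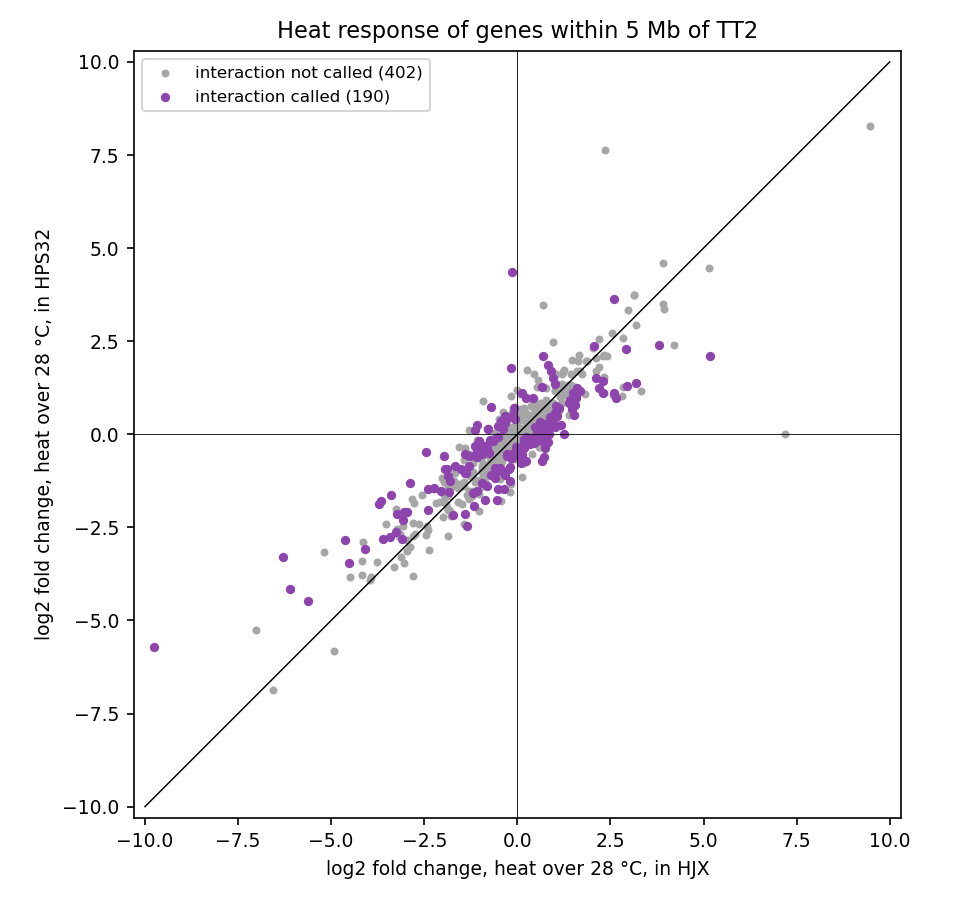
Fitted log2 change with heat in HJX (x axis) and HPS32 (y axis) for the 592 tested genes, with the line of equal change; purple marks the 190 genes with a called interaction. Most genes lie near the line, and 358 were called the same way in both lines; points beyond about 7 on either axis belong to genes with few or no reads in a group.

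Along the chromosome, the share of genes called between the heated lines varied from step to step. In steps of 1 Mb, 60.9% of the tested genes were called between 5 and 4 Mb before TT2 and 56.6% in the next step. The share over all tested genes was 45.2%. In the steps on either side of TT2 the shares were 41.9% before it and 55.0% after it, and 32.3% in the last step. The step from 2 to 3 Mb after TT2 held 25 listed genes and 14 tested, fewest of the 10, and 8 of these 14 (57.1%) were called. In the steps of chromosome 3 outside the 10 Mb, the share called between the heated lines ran from 31.2% to 57.3%. Calls with heat lay between 69.4% and 85.1% per step in HJX and between 66.2% and 83.3% in HPS32. Over all tested genes these shares were 74.9% and 70.4%. At 28 °C the 6 other calls on chromosome 3 lay at -16.6, 10.79, 10.85, 12.57, 12.87 and 18.74 Mb from TT2, all outside the 10 Mb described. Neighbouring tested genes that were both called with heat moved the same way in 191 of 340 pairs (56.2%) in HJX and 172 of 319 (53.9%) in HPS32, against 56.7% and 56.8% of pairs elsewhere.

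**Figure D5:**
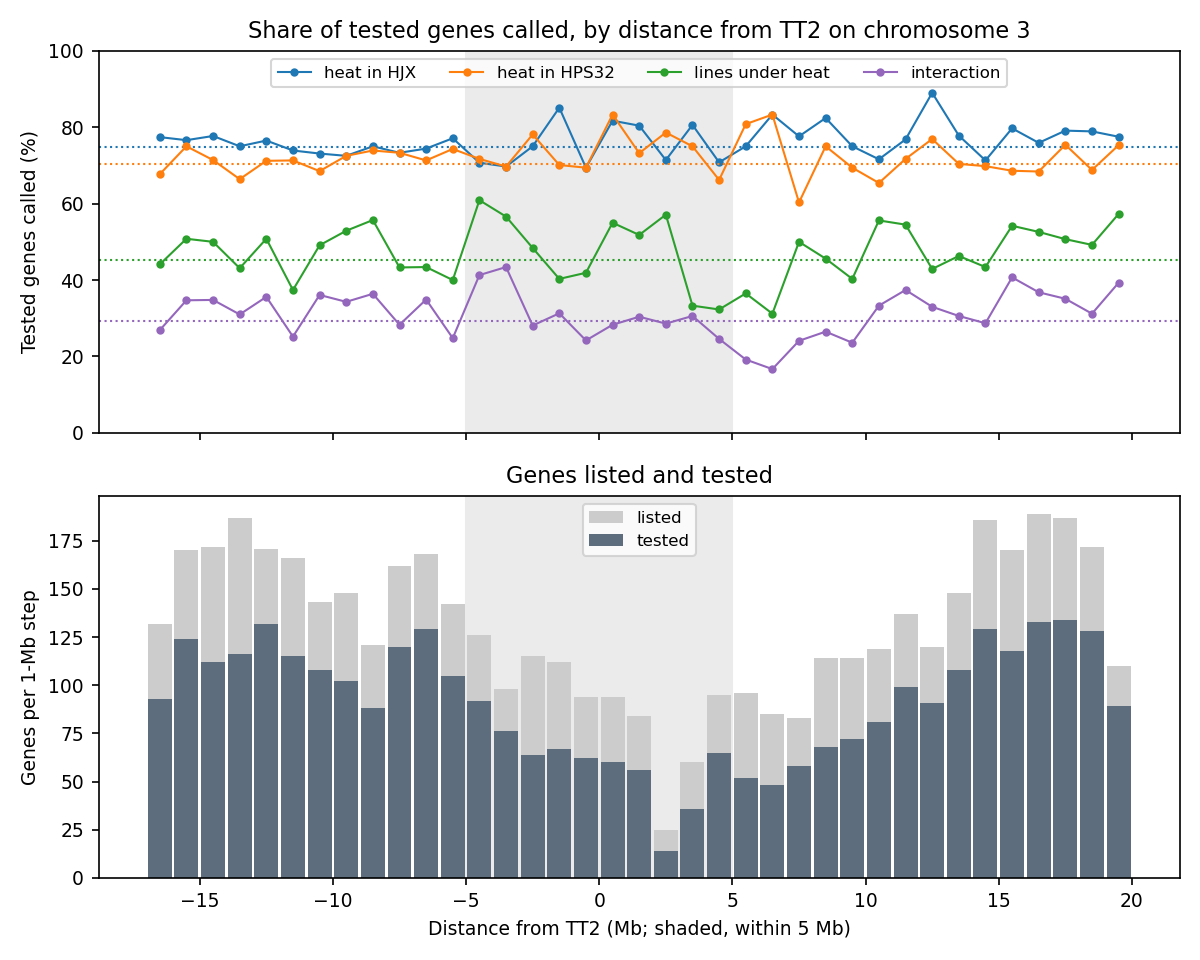
Above, the share of tested genes called (%) in 1-Mb steps of distance from TT2 along chromosome 3, for heat in each line, the lines under heat and the interaction, with the share over all tested genes as dotted lines. Below, the genes listed and tested per step; the shaded 10 Mb around TT2 hold the 903 genes, with 25 in the sparsest step.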

How the data were processed

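Values come from a single deposited table of gene counts. The authors, per the submitters' processing notes, aligned reads with HISAT2 2.0.5 and counted them with featureCounts 1.5.0-p3, giving the deposited raw counts. The authors' log2 fold changes and p-values were also deposited, with DESeq2 1.20.0 named in those notes, and only their call counts are quoted. The 12 deposited FPKM columns and the group means were not used. Levels per length are CPM divided by the deposited gene length in kb. The genome build is not given in the sources used here, and coordinates are those of the deposited table.

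Counts were fitted in R 4.3.3 with edgeR 4.0.16 (filterByExpr, TMM, one mean per group, 12 libraries, robust quasi-likelihood F test, two-sided, Benjamini-Hochberg over 25473 genes, threshold 0.05), with SE as the log2 change divided by the square root of F. DESeq2 1.42.0 was an alternative, beside other scalings, filters, windows of 2 and 10 Mb, and leaving out each library. The test was tested on simulated data. No library pair was a duplicate (chi-square per degree of freedom 3.32 to 17.7). Floors and bounds cover counting error only. Columns of heated libraries cannot be tied to replicate numbers, so they are heat libraries 1 to 3.

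Same-numbered 28 °C libraries of the lines correlated in their deviations from group means (r = 0.426, 0.113 and 0.403 across 20958 genes at log2 CPM 1 or higher), against -0.431 to 0.0748 for different numbers. Over all tested genes r was 0.289, 0.0756 and 0.275. The pairing comes from the data, not the labels.

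Members and gene lists were chosen with earlier results of these data known; lists follow wording in the deposited descriptions, and those for peroxidases, MATE, potassium transporters, RNA recognition motifs, terpene synthases and permeases were added after the descriptions were read. Named genes are TT2, its 5 nearest tested genes on each side, the 5 largest called changes per direction with heat and in the interaction (mean log2 CPM 1 or higher), the largest of each list, and genes at the edges. The largest differences of the heated lines, the highest levels and further list members were named after their values were seen.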

Additional observations from a re-analysis of the deposited data

Results flagged for a closer look

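The responses to heat differed between the lines, by the interaction test, for 190 of the 592 genes around TT2 (32.1%, against 29.3% of all tested genes). Of these, 83 were higher and 107 lower in HPS32. Among them are 35 of the genes named in the text or by its rule, 17 higher and 18 lower in HPS32. Some were named for the size of this difference, so the count and split of the 35 do not describe the region. Values are the log2 change with heat in HPS32 minus that in HJX. Positive differences were found for the photosystem genes Os03g0343900 (1.07) and Os03g0333400 (0.82), the P450 genes Os03g0371350 (4.04), Os03g0570100 (1.98) and Os03g0332100 (1.13), the F-box gene Os03g0366350 (2.99), the carboxypeptidase Os03g0392600 (1.96), the peroxidase Os03g0339300 (1.86) and the dehydrogenase Os03g0404800 (1.79). The DnaJ gene Os03g0560050 (1.43), the ribosomal protein genes Os03g0356300 (1.10), Os03g0452300 (0.85) and Os03g0408300 (0.60), the pseudouridine synthase Os03g0370500 (1.02) and the terpene synthase Os03g0347900 (1.00) also stood higher. So did the leucine-rich repeat genes Os03g0335500 (0.82) and Os03g0397700 (0.69).

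Negative differences were found for Os03g0355500 (-3.06), Os03g0586700 (-1.68), Os03g0336700 (-1.66), Os03g0421250 (-1.49), the permease Os03g0576900 (-1.32) and the RNA recognition motif gene Os03g0374575 (-1.11). The amylase family gene Os03g0351300 (-0.99) and the overlapping pair Os03g0407050 (-0.96) and Os03g0407000 (-0.91) followed. Unannotated transcripts at 2.39, 3.21 and 0.04 Mb after TT2 gave -1.80, -1.40 and -0.60. The chaperone-worded genes Os03g0370000 (-1.03), Os03g0401200 (-0.54) and Os03g0426900 (-0.40) and the NAC gene Os03g0327800 (-1.20) were lower as well. So were Os03g0335300 (-0.55) and the dormancy and auxin associated gene Os03g0342900 (-0.43), the latter not under total counts (adjusted p = 0.297). The DnaJ gene Os03g0560050 lost its call without any of 7 libraries (adjusted p up to 0.101). The P450 gene Os03g0371350 lost its interaction call without any of 5 heated libraries (adjusted p up to 0.0793), and the peroxidase lost its call without HJX heat library 1 (adjusted p = 0.0537).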

How the results depend on the processing

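Over the alternatives, 109 of 147 pairs of a named gene and a comparison kept their direction and their side of the threshold everywhere. The single call between the lines at 28 °C, and the single gene called the same way at both temperatures, went to 0 with total counts, without a filter, with the compared groups alone and within 2 Mb of TT2. With the replicate block they were 5 and 3, and the counts for the heated lines (312) and the interaction (214) changed by no more than 1.5 times. The blocked fit gave 427 and 413 for heat in HJX and HPS32. It sets heat against the fitted level of replicate 1 at 28 °C. Neither these counts nor the blocked heat changes of single genes therefore show how the block affects the main comparison. With a change of at least 2-fold as well, 53 genes were called between the heated lines, 244 with heat in HJX, 224 in HPS32 and 39 for the interaction. Within 2 Mb the counts were 115, 194, 181 and 70 of 245 tested, and within 10 Mb 662, 1084, 1046 and 429 of 1434. The shares over all tested genes were 45.2%, 74.9%, 70.4% and 29.3%. Leaving out each library in turn gave 0 to 1 at 28 °C, 235 to 296 between the heated lines, 424 to 449 with heat in HJX, 407 to 436 in HPS32, 148 to 183 for the interaction and 0 to 1 the same way at both temperatures. The called transcript at 28 °C had adjusted p from 2.43e-07 to 0.659.

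Among those 147, total counts turned the heat change in HPS32 of Os03g0370000 (0.36, called both ways), Os03g0374575 (0.19, called in the main scaling only), Os03g0408300 (0.43, called under total counts only) and Os03g0570100 (0.10, not called). They also turned the difference of the heated lines for Os03g0407100 (0.11) and Os03g0431800 (0.09), neither called. The other turns were not called: Os03g0406900 under heat with libraries left out (-0.96 to 0.13), and at 28 °C, with libraries left out, Os03g0407100 (-0.17 to 0.03), Os03g0408300 (-0.06 to 0.06), Os03g0408401 (-0.67 to 0.45) and Os03g0407900 (-0.19 to 0.01). The cause was not tested. The interaction needs all 4 groups and has no fit on the compared groups alone. Depth limits TT2 itself, at 16 reads or fewer per group.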

Other observations

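Other members had values that belong in no comparison above. Among the 903 genes, 311 were not tested, 134 of them without any read in any library. Os03g0353400 (-3.45 Mb, no domain description) varied with the replicate number in both lines at 28 °C: it read 946, 716 and 342 CPM in HJX and 1060, 555 and 321 CPM in HPS32 there, so same-numbered libraries are alike, against 129 to 164 CPM and 215 to 250 CPM after heat. The gene Os03g0335300, with a PA domain, gained 201 CPM with heat in HJX and 63.0 CPM in HPS32.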
